A study of Mus musculus with 6 samples.

Results

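The baseline transcriptome of B16-F10 cells without a Sirpa deletion was read from the 3 libraries labelled Sirpa-WT, of 6 libraries in the series. Members were chosen by title and genotype label alone, and no gene's level is compared with the libraries labelled Sirpa-KO, whose depth, pseudogene shares and 1 count of overlapping detection are given as checks on the files. B16-F10 is a transplantable mouse melanoma line of C57BL/6 origin, and the cells were grown in vitro, per the series text. The study asked how Sirpa, which encodes the inhibitory receptor SIRPα, shapes expression in these tumour cells at steady state. Their genotype label is Sirpa wild type. The labels give no treatment, age, passage, guide or clone for the 3 libraries, and do not say whether the Sirpa-WT cells passed through an editing step. A label field gives the cell line as Pmel and the tissue as tumor, which differs from the series text. Nothing in the labels says that the 3 replicates came from separate cultures, so the spread given here may be partly technical.

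Melanocytes and melanomas make pigment in melanosomes, organelles related to the lysosome. The enzymes Tyr, Dct and Tyrp1 act in turn on tyrosine products to build melanin on a fibrous scaffold of Pmel protein. The transcription factor MITF, with SOX10 and PAX3, drives this programme, and the hormone receptor MC1R raises it through cyclic AMP. B16 lines are widely used because they are pigmented, grow fast in C57BL/6 mice and carry little MHC class I on their surface.

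Each library was shallow. Total counts were 411695, 343808 and 345543 in replicates 1, 2 and 3, so that 1 count was worth 2.43, 2.91 and 2.89 counts-per-million (CPM). A gene was called detected with 3 or more counts in each library, which corresponds to 7.29, 8.73 and 8.68 CPM. A gene at 0 in all 3 libraries may still stand at up to 2.72 CPM, the worth of 3 counts in the pooled total of 1101046; these floors cover counting error only. Of 39179 genes in the files, 7795 were detected (19.9%), and 6147 of 21303 protein-coding genes were detected (28.9%). That last share is the background for every list below. At this depth 9940 protein-coding genes had no count in any of the 3 libraries, 3223 had at least 10 counts in each, and 355 had at least 100 in each. A further library of the series, Sirpa-KO replicate 1, reached 29877270 counts. As a check on the files, of the 7795 genes detected in the Sirpa-WT cells 630 had under 3 counts in that library. They included 568 of the 1501 detected pseudogenes and 33 of the 6147 detected protein-coding genes. The same count over all genes in the files was not made, so no background share stands beside these numbers.

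The label was checked against 5 pigment cell markers, and all 5 were detected in every library. Dct, the dopachrome tautomerase gene on chromosome 14 (ENSMUSG00000022129, 118012792 to 118052246, GRCm38), gave 4090, 2974 and 2730 counts in replicates 1 to 3. It stood at 8828 ± 1029 CPM (SD, n = 3) and ranked 3 among protein-coding genes by CPM. Tyrp1 on chromosome 4 (80834123 to 80851719), whose enzyme acts after Dct, gave 2744, 2148 and 1942 counts, or 6178 ± 526 CPM (SD, n = 3), rank 7. For both genes replicate 1 was the highest library and replicate 3 the lowest. Both ranks take each gene without its pseudogenes, which are described below. With pseudogenes added, Gapdh (32399 CPM), Ftl1 (15161 CPM), Rpsa (13479 CPM) and Ppia (13312 CPM) also stood above Dct.

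Pmel gave 432, 296 and 314 counts (940 ± 97.9 CPM). Mlana, which encodes the melanosomal protein MART-1, gave 240, 216 and 251 counts (646 ± 73.3 CPM). Mitf itself gave 260, 222 and 205 counts (624 ± 27.1 CPM), and its 3 values differed by no more than counting error (chi-square per degree of freedom 0.41, where counting error alone averages 1). Together the 5 markers took 18863, 17033 and 15749 CPM in replicates 1 to 3. They share under 2% of their sequence with annotated pseudogenes, the highest share being the 1.57% of Tyrp1, a measure explained with the pseudogenes.

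To compare levels between genes, counts were divided by the exon length in the files and scaled to transcripts-per-million (TPM). On this scale Dct stood at 5462, 4649 and 4077 TPM, above Tyrp1 at 2930, 2685 and 2319 TPM, and the 2 sets of values did not overlap. Mlana, a short gene, followed at 1163, 1225 and 1360 TPM. Rab38, a small GTPase that carries pigment enzymes to melanosomes, stood at 682, 723 and 643 TPM. Cd63, a tetraspanin of melanosomes and lysosomes, stood at 665, 542 and 616 TPM, and Pmel at 612, 491 and 498 TPM. The range of Cd63 overlapped those of Rab38 and Pmel, so its place among them is not set, while Rab38 and Pmel did not overlap. Mitf lay far lower at 126, 126 and 111 TPM. Tyrosinase, the enzyme of the first and rate-limiting step of melanin synthesis, was lower still at 44.7, 53.4 and 44.9 TPM, from 49, 50 and 44 counts. Dct exceeded Tyr on the TPM scale in each of the 3 libraries. The exon length used covers all annotated exons of a gene, which may exceed the length of the transcript in the cells. Levels per length, here and below, may then be too low for some genes. Rps15a, at 6262 bases, ranked 19 among protein-coding genes by CPM and 120 by TPM.

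The wider list of melanin synthesis and melanosome genes had 18 of 20 members detected. Per length, Slc24a5, an ion exchanger of melanosomes (374 ± 59.8 TPM), Tspan10, a tetraspanin gene (318 ± 10.7 TPM), and Gpnmb, a melanosomal glycoprotein gene (285 ± 37.8 TPM), lay between Pmel and Mitf. Genes for the transport of melanosomes stood below Tyr, with the linking GTPase Rab27a at 27 ± 7.23 TPM, its partner Mlph at 9.11 ± 2.4 TPM and the motor Myo5a at 7.85 ± 2.7 TPM. The pump and channel genes Slc45a2 (30, 25 and 30 counts), Atp7a (16, 15 and 12) and Oca2 (6, 8 and 7) were also detected. Rab32 (6, 1 and 4 counts) and Trpm1 (7, 1 and 3) missed detection in replicate 2 only. Every member of this list had at least 1 count in each library.

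**Figure D1:**
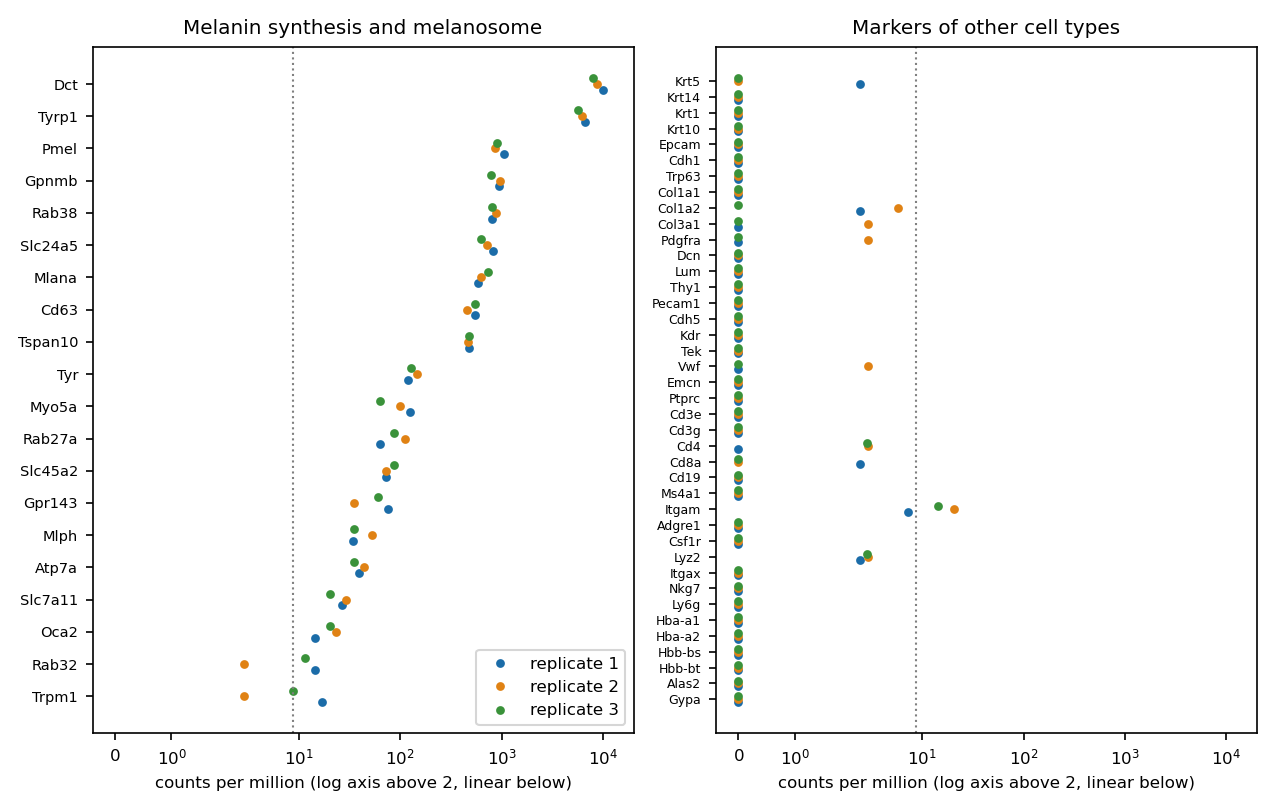
CPM in each of the 3 Sirpa-WT libraries (points, horizontal axis logarithmic above 2 and linear below) for 20 melanin and melanosome genes (left) and for markers of keratinocytes, fibroblasts, endothelium, immune cells and red cells (right). The dotted line is the worth of 3 counts in the shallowest library, 8.73 CPM. Dct and Tyrp1 lie near the right edge, whereas Itgam alone among the other-cell markers has a point past the dotted line.

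Markers of other cell types were mostly at or near 0. None of 7 keratinocyte, 7 fibroblast, 6 endothelial or 6 red cell markers was detected, and these 4 lists held 1, 5, 1 and 0 counts in all over the 3 libraries. Their defining genes Krt14, Cdh1, Col1a1, Pecam1, Cdh5 and Hbb-bs had no count. Of 14 immune cell markers, only Itgam, an integrin subunit of myeloid cells, was detected, with 3, 7 and 5 counts. The pan-leukocyte gene Ptprc and the macrophage genes Adgre1 and Csf1r had none. The summed level of the immune list was 12.1, 26.2 and 20.3 CPM in replicates 1 to 3.

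Muscle and nerve markers did not follow that pattern, and 5 of 8 were detected. Acta1, which encodes skeletal muscle actin, gave 172, 89 and 75 counts (298 ± 106 CPM), more in replicate 1 than in replicates 2 and 3. Acta1 shares 6.52% of its sequence words with pseudogenes, 5.67% with Actb and 2.93% with Actg1; whether reads of those genes entered its count was not tested. Desmin (Des) gave 0, 1 and 0 counts and Myod1, a muscle regulator, had none. The glial genes Mbp (64, 53 and 40 counts) and S100b (22, 11 and 20), the latter also known as a melanoma marker, were detected, as was the neuronal tubulin gene Tubb3 (25, 30 and 24).

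Processed pseudogenes, which arise when the messenger RNA of an active gene is copied back into the genome, are near-copies of their parent genes and often lack introns. In these libraries protein-coding genes took 68.6% ± 0.652 of counts (SD, n = 3), and annotated pseudogenes took 29.2%, 29.1% and 30.2% in replicates 1 to 3. Processed pseudogenes alone took 28.1% ± 0.585. The libraries of similar depth labelled Sirpa-KO replicates 2 and 3 stood at 27.2% and 27%, and the deep library labelled Sirpa-KO replicate 1 at 0.216%. Per the file headers the same counting options were used for all 6. What sets these shares apart was not tested.

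Pseudogenes were tied to parents by shared 25-base words, and 95.3% ± 0.0615 of all pseudogene counts lay in 3243 pseudogenes with a parent. Pseudogenes of ribosomal protein genes, 697 of them, held 43.4% ± 1.47 of all pseudogene counts. Ribosomal protein genes themselves took 4.37% ± 0.42 of all counts, and with their pseudogenes 17.2% ± 1.07. Of that joint sum, 74.6% ± 0.85 lay in the pseudogenes.

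The sequences below show how close some copies are to their parents, for the 3 pseudogenes of highest CPM. Each is a stretch of 120 bases, 5′ to 3′ on the parent's strand, and capitals mark the bases at which parent and copy differ. The stretch was picked for the most differences within the longest gap-free aligned block. It may therefore show more differences than the rest of the copy. Ftl1 encodes the ferritin light chain, which stores iron. Its copy Gm15590 (chr17:6131854-6132405, minus strand, GRCm38) matches the coding sequence of Ftl1 (chr7:45457944-45459884, minus strand) at 544 of 549 aligned bases. The stretch shown is bases 385 to 504 of the Ftl1 coding sequence.
Ftl1: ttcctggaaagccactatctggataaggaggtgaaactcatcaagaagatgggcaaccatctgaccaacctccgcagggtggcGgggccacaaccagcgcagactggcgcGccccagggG
Gm15590: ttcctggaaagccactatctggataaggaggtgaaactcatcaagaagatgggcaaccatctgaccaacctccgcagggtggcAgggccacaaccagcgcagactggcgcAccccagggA
Gm11512 (chr11:90538484-90539146, minus strand) is a nuclear copy of mt-Co1, the mitochondrial gene for subunit 1 of cytochrome oxidase (chrMT:5328-6872, plus strand). It matches mt-Co1 at 593 of 654 aligned bases, and bases 1398 to 1517 of the mt-Co1 coding sequence hold 21 differences.
mt-Co1: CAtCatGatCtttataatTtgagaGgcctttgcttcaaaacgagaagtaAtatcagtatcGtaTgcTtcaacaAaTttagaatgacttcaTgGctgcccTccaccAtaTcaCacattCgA
Gm11512: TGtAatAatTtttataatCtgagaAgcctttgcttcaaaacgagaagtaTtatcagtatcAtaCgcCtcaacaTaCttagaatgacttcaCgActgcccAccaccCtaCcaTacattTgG
Pgk1-rs7 (chr12:10898566-10900296, minus strand) copies Pgk1, the X-linked gene of the glycolytic enzyme phosphoglycerate kinase, and matched it at all 1250 aligned bases, so that bases 2 to 121 of the coding sequence are the same in both.
Pgk1 and Pgk1-rs7: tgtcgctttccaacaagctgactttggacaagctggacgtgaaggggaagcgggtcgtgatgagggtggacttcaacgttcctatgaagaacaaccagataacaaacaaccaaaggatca

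Gm15590 gave 2862, 2417 and 2738 counts (7302 ± 540 CPM), against 1070, 1027 and 1234 for Ftl1 (3052 ± 489 CPM). The Ftl1 family of 7 pseudogenes held 79.9% ± 1.59 of its counts outside the parent. Pgk1-rs7 gave 2574, 1993 and 2019 counts (5964 ± 251 CPM), against 295, 251 and 277 for Pgk1 (749 ± 45.7 CPM). Since the aligned Pgk1 bases are the same, a read within them cannot be assigned to either locus by sequence. Gm11512 gave 2491, 2184 and 2145 counts (6204 ± 151 CPM), against 10668, 10508 and 9618 for mt-Co1.

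The Gapdh family had the most pseudogenes of the 15 largest. Gapdh, a glycolytic enzyme often used as a reference gene, gave 2472 ± 231 CPM, while its 157 pseudogenes, 112 of them detected, summed to 29927 ± 2560 CPM and held 92.4% ± 0.57 of the family. For Rps2 the pseudogenes held 95.9% ± 0.309, for Rps24 96.4% ± 0.412 and for Rps3a1 92.4% ± 0.962. Eef1a1, the elongation factor that brings transfer RNA to the ribosome, kept most of its counts: 26181 ± 295 CPM in the gene and 7269 ± 76.3 CPM in 6 pseudogenes. Ppia (cyclophilin A) was split more evenly, at 6247 ± 431 CPM in the gene and 7066 ± 68.9 CPM in its 17 pseudogenes. A level of such a gene in these libraries is therefore uncertain. The counts do not show how many reads fitted several loci, so the amount held by the copies does not bound this uncertainty.

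**Figure D2:**
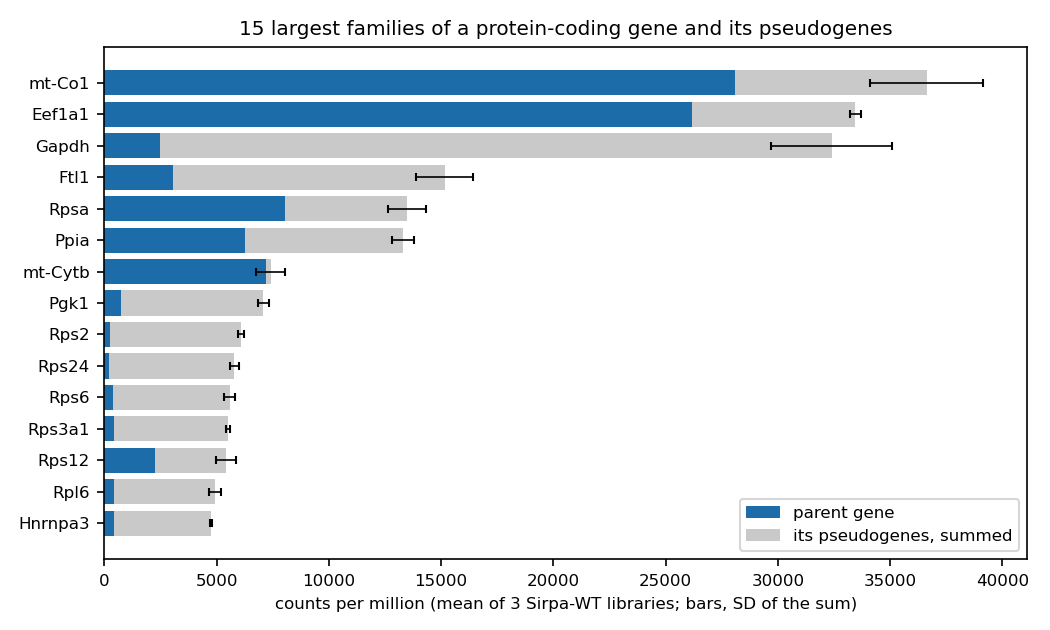
Mean CPM over the 3 Sirpa-WT libraries (horizontal axis, bars from 0) for the 15 families of highest level, split into the parent gene (blue) and its summed pseudogenes (grey). Black bars are the SD of the sum over 3 libraries; the Gapdh family sums to 32399 CPM with 2472 CPM in Gapdh, whereas the Eef1a1 family sums to 33450 CPM with 26181 CPM in the parent.

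The 10 highest genes took 11% ± 0.286 of all counts and included 3 pseudogenes. The 100 highest took 29.2% ± 0.0791 and included 50 pseudogenes, and the 1000 highest took 64.8% ± 0.28 and included 290. By CPM, which favours long genes, the highest protein-coding genes were mt-Co1 (28103 ± 2337 CPM), Eef1a1, Dct, the laminin-binding ribosomal protein gene Rpsa (8064 ± 417 CPM), mt-Cytb (7184 ± 672 CPM), Ppia and Tyrp1. They were followed by Ctnnb1 (3846 ± 156 CPM), Tubb5 (3296 ± 311 CPM), Ftl1, Eno1b (2923 ± 170 CPM), Eef2 (2914 ± 155 CPM), Gapdh, the histone H3.3 gene H3f3b (2404 ± 135 CPM) and Rps12 (2241 ± 172 CPM). Sparc, Rpl7a, Eif2s2, Rps15a and Hspa8 completed the first 20, between 2193 ± 477 CPM for Sparc and 1864 ± 48.5 CPM for Hspa8. Eno1b shares 83.5% of its words with Eno1 and 68.9% with pseudogenes, so its count is uncertain.

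Among all genes, the highest per length were mt-Co1 (21970 ± 1793 TPM), Gm27529 (16967 ± 1427 TPM), Gm15590 (15960 ± 689 TPM), Gm10736 (14509 ± 446 TPM) and Eef1a1 (12693 ± 523 TPM). The next 5 were Gm11512, Gm7808, Gm7363, Gm26384 and Ftl1-ps2, between 11304 ± 361 and 8714 ± 218 TPM. Gm27529 and Gm26384 are annotated as microRNA genes of 80 and 110 bases, and Gm10736 as a pseudogene of 78 bases. For such short genes a level per length is a poor guide, since a sequenced fragment may be longer than the gene.

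Restricting the view to genes with under 5% of their words in pseudogenes left 5092 of the 6147 detected protein-coding genes, holding 40.5% ± 1.17 of all counts. The set leaves out Gapdh, Ftl1, Rpsa and Ppia, each with more counts than Dct once pseudogenes are added. Within this set Dct and Tyrp1 ranked 1 and 2 by both CPM and TPM. By TPM they were followed by mt-Nd1, a complex I subunit of the mitochondrial genome (2109 ± 148 TPM), the respiratory chain genes Cox6b1 (2004 ± 66.9 TPM) and Ndufa2 (1276 ± 151 TPM), the ferritin heavy chain gene Fth1 (1421 ± 155 TPM) and Mlana (1250 ± 101 TPM). Tubb5 (1201 ± 150 TPM), Ctnnb1 (912 ± 65.7 TPM) and the prolyl isomerase gene Fkbp3 (862 ± 44.2 TPM) completed the first 10. The ranges given by the SDs of Ndufa2, Mlana and Tubb5 overlap.

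Of 15 transcription factors of the melanocyte lineage, 5 (33.3%) were detected, close to the 28.9% of all protein-coding genes. Mitf was followed by Sox10 (45, 36 and 29 counts, 99.3 ± 13.5 CPM), the neural crest regulator that acts with it. Zeb2 (13, 7 and 10 counts), Tfap2a (9, 7 and 7) and Pax3 (9, 9 and 4) had between 22 and 30 counts in the 3 libraries together. Irf4, Snai2, Foxd3, Zeb1 and Twist1 had no count, and Sox9 had 1. Of 13 markers of an invasive, less differentiated melanoma state, 4 (30.8%) were detected, also close to that share. They were Vim (177, 118 and 110 counts), Jun (18, 18 and 21), Fn1 (12, 7 and 6) and Fgf1 (6, 4 and 4). Axl gave 4, 1 and 0 counts, and Ngfr, Egfr, Tnc, Wnt5a, Fosl1, Sox2 and Aqp1 gave none.

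Of 16 receptors through which melanocytes receive growth and pigment signals, 4 (25%) were detected, close to the 28.9% of all protein-coding genes. Mc1r, the melanocortin receptor, gave 64, 49 and 56 counts (153 ± 9.94 CPM, 50.6 ± 2.89 TPM), the highest of the list per length, and its values differed by no more than counting error (chi-square per degree of freedom 0.223). Met, the receptor of hepatocyte growth factor, gave 48, 47 and 32 counts (115 ± 22.1 CPM, 18.2 ± 3.83 TPM). Mertk (23, 28 and 11 counts) and the neuregulin receptor gene Erbb3 (24, 25 and 8) were detected and lowest in replicate 3. Kit, the stem cell factor receptor of melanoblasts, gave 1, 0 and 0 counts, and Ednrb, the endothelin receptor of the same lineage, gave none. Egfr, Ngfr and Kdr were also at 0, each at no more than 2.72 CPM by the pooled floor.

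SIRPα carries inhibitory motifs that recruit the phosphatases SHP-1 and SHP-2, and its ligand CD47 is best known as a signal that keeps phagocytes from engulfing a cell. Sirpa (ENSMUSG00000037902, chromosome 2, 129592835 to 129632228) gave 12, 7 and 3 counts, or 29.1, 20.4 and 8.68 CPM (19.4 ± 10.3 CPM). The chi-square per degree of freedom was 1.97, and replicate 3 lay exactly at the detection floor. Cd47 (chromosome 16, 49855618 to 49915010) gave 16, 14 and 9 counts (35.2 ± 7.99 CPM). Per length Sirpa stood at 7.38, 5.04 and 2.06 TPM and Cd47 at 9.16, 9.38 and 5.76 TPM, and the 2 ranges overlapped.

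In the pathway list around SIRPα and CD47, 7 of 15 genes (46.7%) were detected, beside 28.9% of all protein-coding genes. The SHP-2 gene Ptpn11 gave 38, 30 and 26 counts (84.9 ± 8.76 CPM), whereas the SHP-1 gene Ptpn6, known mainly from blood cells, gave 5, 1 and 1. Calr, whose protein can act as a signal for uptake at the cell surface, gave 366, 247 and 223 counts (751 ± 125 CPM). The adaptor genes Skap2 (23, 19 and 20 counts) and Sh2b1 (10, 8 and 8) and the kinase gene Src (5, 4 and 4) made up the rest of those detected. Qpctl, the enzyme that modifies CD47 for SIRPα binding, gave 2, 1 and 0 counts, Thbs1, a secreted CD47 ligand, 0, 0 and 2, and Qpct none.

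**Figure D3:**
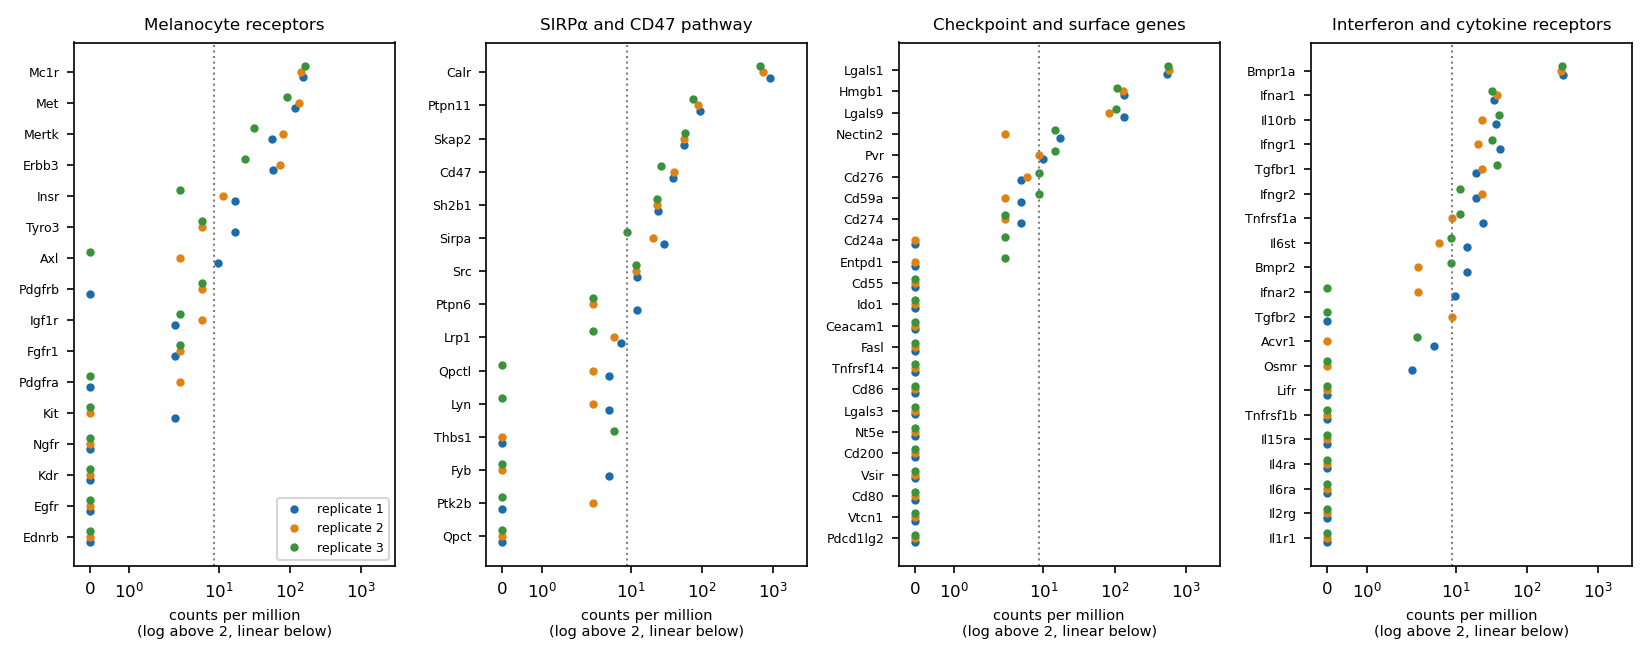
CPM of single genes in each Sirpa-WT library (points, axes logarithmic above 2 and linear below) for melanocyte receptors, the SIRPα and CD47 pathway, checkpoint and surface genes, and interferon and cytokine receptors. The dotted line marks 8.73 CPM, the worth of 3 counts in the shallowest library. Sirpa lies near the dotted line and Cd47 somewhat above it, while Kit, Ednrb, Egfr and Cd274 stay to its left in every library.

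MHC class I presentation was detected for 10 of 15 genes (66.7%), beside 28.9% of all protein-coding genes. B2m, the invariant light chain, gave 104, 112 and 94 counts (283 ± 37.9 CPM). The heavy chain gene H2-D1 gave 55, 46 and 44 counts (132 ± 3.67 CPM), and H2-K1 gave 15, 5 and 15 (31.5 ± 15.1 CPM). Per length H2-D1 stood at 64.4, 63 and 57.6 TPM and H2-K1 at 17.4, 6.78 and 19.4 TPM, without overlap, but both share 13.6% to 19% of their words with annotated pseudogenes. The peptide transporter gene Tap1 was near the floor (4, 3 and 4 counts) and Tap2 gave 1, 0 and 0. The immunoproteasome genes Psmb8 (2, 0 and 0 counts) and Psmb9 (1, 0 and 0) were not detected, while Psmb10 gave 3, 4 and 5. Nlrc5, the transactivator of class I genes, gave 2, 0 and 1. None of 8 MHC class II genes was detected, and Cd74, Ciita, H2-Aa and H2-Ab1 had no count.

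Among ligands and surface regulators of immune checkpoints, 4 of 23 genes (17.4%) were detected, beside 28.9% of all protein-coding genes. They were the galectin genes Lgals1 (222, 201 and 196 counts, 564 ± 22.9 CPM) and Lgals9 (57, 29 and 36), the alarmin gene Hmgb1 (55, 45 and 38) and Pvr, a ligand of TIGIT (4, 3 and 5). Pseudogenes held 93.6% ± 0.621 of the counts of the Hmgb1 family, so the level of Hmgb1 is uncertain. Cd274, which encodes PD-L1, gave 2, 1 and 1 counts. Pdcd1lg2, Cd80, Cd86, Lgals3, Ido1, Fasl, Nt5e and Cd55 were among 13 genes of the list with no count.

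Interferon and cytokine receptors had 7 of 20 members detected (35%), beside 28.9% of all protein-coding genes. The type I interferon receptor chain Ifnar1 gave 14, 13 and 11 counts (34.6 ± 3.03 CPM), and its partner Ifnar2 gave 4, 1 and 0. Both chains of the interferon gamma receptor were detected, Ifngr1 with 17, 7 and 11 counts and Ifngr2 with 8, 8 and 4. Bmpr1a, a bone morphogenetic protein receptor, was the highest of the list per length at 59.2 ± 3.61 TPM, from 133, 104 and 106 counts. The TGF-β receptor chain Tgfbr1 gave 8, 8 and 13 counts, and Tgfbr2 gave 0, 3 and 0. None of 8 chemokine receptors was detected, and Cxcr4, Cxcr3 and Ccr7 had no count.

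Downstream of these receptors, 6 of 13 JAK, STAT and IRF genes (46.2%) were detected, beside 28.9% of all protein-coding genes. Jak1 gave 176, 138 and 121 counts, Jak2 3, 6 and 1, and Tyk2 7, 3 and 2. Per length these were 65.9 ± 8.62 TPM for Jak1, 2.23 ± 1.81 TPM for Jak2 and 2.78 ± 1.61 TPM for Tyk2. Irf7 and Socs1 had no count. Of 20 interferon-induced genes, 11 (55%) were detected, 8 of them with between 3 and 17 counts per library. The chemokine gene Cxcl10 (85, 75 and 78 counts, 217 ± 9.71 CPM), the RNA sensor gene Ddx58, which encodes RIG-I (103, 57 and 71 counts, 207 ± 42.2 CPM), and Isg15 (28, 24 and 26 counts, 71 ± 3.77 CPM) were the other 3. Ifit1 (4, 3 and 2 counts), Mx1 (5, 3 and 1) and Oasl2 (1, 2 and 3) missed detection. Per length Cxcl10 stood at 169, 174 and 173 TPM and Isg15 at 112, 112 and 116 TPM, even levels across the 3 libraries, above Ddx58 at 44.1, 28.6 and 34 TPM.

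Other sensors of foreign nucleic acid were detected with fewer counts. Cgas gave 28, 13 and 7 counts (42 ± 24.2 CPM), highest in replicate 1, with a chi-square per degree of freedom of 5.11. Tmem173, the gene of STING, gave 8, 10 and 5 counts, Tbk1 11, 9 and 15, and Mavs 9, 5 and 6. Of 29 chemokine and secreted factor genes, 6 (20.7%) were detected, beside 28.9% of all protein-coding genes. They were Cxcl10, the growth factor gene Hdgf (78, 67 and 93 counts), Mif (44, 62 and 58), Grn (13, 9 and 7), Vegfb (11, 4 and 6) and Vegfa (6, 4 and 7). Mif shares 40.7% of its words with pseudogenes. Ccl2, Cxcl1, Cxcl12, Il6, Tgfb1, Csf2 and Gdf15 were among 16 of the list with no count, and Ccl5 gave 0, 1 and 0.

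Adhesion genes were detected for 11 of 28 (39.3%), beside 28.9% of all protein-coding genes. The integrin subunits Itgb1 (165, 151 and 122 counts, 118 ± 15.3 TPM), the glycoprotein gene Bsg (44, 47 and 36 counts, 77.3 ± 12.8 TPM) and the tetraspanin gene Cd151 (34, 42 and 41 counts, 64.6 ± 12 TPM) were the highest per length. Itgav, a subunit of vitronectin receptors, gave 102, 71 and 48 counts (22.4 ± 6.84 TPM). The melanoma adhesion gene Mcam gave 33, 29 and 25 counts (79 ± 6.09 CPM), and Itga4 20, 10 and 11. Itgb3 gave 2, 2 and 0. Cdh2 gave 6, 4 and 1 counts and Cdh1 none, and Icam1 and Vcam1 had none.

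The MAP kinase pathway, a main route of growth signals in melanoma, had 16 of 22 members detected (72.7%), beside 28.9% of all protein-coding genes. The kinase gene Mapk3 gave 27, 21 and 24 counts (36.5 ± 1.89 TPM). The feedback phosphatase gene Dusp6, itself a target of ERK, gave 181, 136 and 116 counts (169 ± 27.8 TPM), the highest of the list per length. The RAF kinase genes Araf and Braf were detected at 9.25 ± 0.475 and 5.39 ± 1.39 TPM. The RAS genes Nras and Hras were detected at 18 ± 0.763 and 7.46 ± 3.44 TPM. Of the other genes in the list that respond to ERK, Phlda1 (12, 10 and 10 counts), Dusp4 (5, 8 and 10) and Ccnd1 were detected, whereas Spry2 gave 1, 5 and 0 counts, Spry4 0, 1 and 1, and Etv1 none.

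In the PI3K and mTOR list 10 of 17 were detected (58.8%), beside 28.9% of all protein-coding genes. Eif4ebp1, a repressor of translation under mTOR control, gave 99, 114 and 128 counts (385 ± 71.4 TPM), the highest of the list per length. Akt1 gave 67, 68 and 72 counts (55.8 ± 5.56 TPM) and Akt2 16, 8 and 12 (5.47 ± 1.42 TPM).

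Among cell cycle inhibitors and p53 genes 7 of 14 were detected (50%), beside 28.9% of all protein-coding genes. Trp53 gave 27, 16 and 15 counts, its regulator Mdm2 24, 17 and 14, and the p53 target Cdkn1a (p21) 53, 41 and 41 (122 ± 5.66 CPM). The p53 targets Ccng1 (64, 50 and 50 counts) and Bax (41, 40 and 56) were also detected. Cdkn2a (chromosome 4, 89274471 to 89294653) and its neighbour Cdkn2b (89306289 to 89311032) had no count in any library, which allows up to 2.72 CPM each. Mtap, on the same chromosome at 89137122 to 89181081, gave 506, 418 and 396 counts (1197 ± 44.6 CPM); it was singled out after its values were seen. Rb1 gave 1, 3 and 3 counts.

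Genes of the dividing cell were detected for 23 of 24, against 28.9% of protein-coding genes. The proliferation marker Mki67 gave 659, 438 and 339 counts (1285 ± 310 CPM), with replicate 1 the highest and a chi-square per degree of freedom of 27.8. Per length the highest were Pcna, the replication clamp (373 ± 55.3 TPM), the mitotic cyclin Ccnb1 (281 ± 32.7 TPM) and the mitotic activator Cdc20 (186 ± 33.8 TPM), all of which share 25.1% to 33.4% of their words with pseudogenes. Mki67 stood at 155 ± 42 TPM and Top2a at 51.1 ± 5.74 TPM. Cdk4 gave 73, 61 and 53 counts and Cdk6 2, 3 and 3. Among the D cyclins Ccnd2 gave 69, 65 and 47 counts, Ccnd3 15, 15 and 16, and Ccnd1 11, 14 and 9.

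The WNT, NOTCH and HIPPO pathways guide cell fate and growth. Ctnnb1, which encodes β-catenin, gave 1639, 1334 and 1270 counts (3846 ± 156 CPM) and shares none of its words with pseudogenes. In all 8 of 19 WNT genes (42.1%) were detected, beside 28.9% of all protein-coding genes. Apc (31, 35 and 19 counts), Lrp6 (26, 27 and 14), Fzd7 (14, 17 and 14) and Fzd6 (18, 13 and 14) were among them, whereas Lef1 gave 3, 0 and 2 and the feedback target Axin2 0, 2 and 2. In the NOTCH list, 1 of 10 genes (10%) was detected, the DNA-binding factor Rbpj (8, 5 and 5). Notch1 gave 3, 4 and 0 and Hes1 3, 2 and 0. HIPPO genes were detected for 8 of 14 (57.1%), with the kinase gene Stk4 highest per length (38.1 ± 3.84 TPM). The kinase gene Lats1 stood at 20.7 ± 6.29 TPM and the effector genes Wwtr1 and Yap1 at 11.6 ± 3.7 and 6.43 ± 1.64 TPM, with overlapping SD ranges for Lats1 and Wwtr1 and for Wwtr1 and Yap1.

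**Figure D4:**
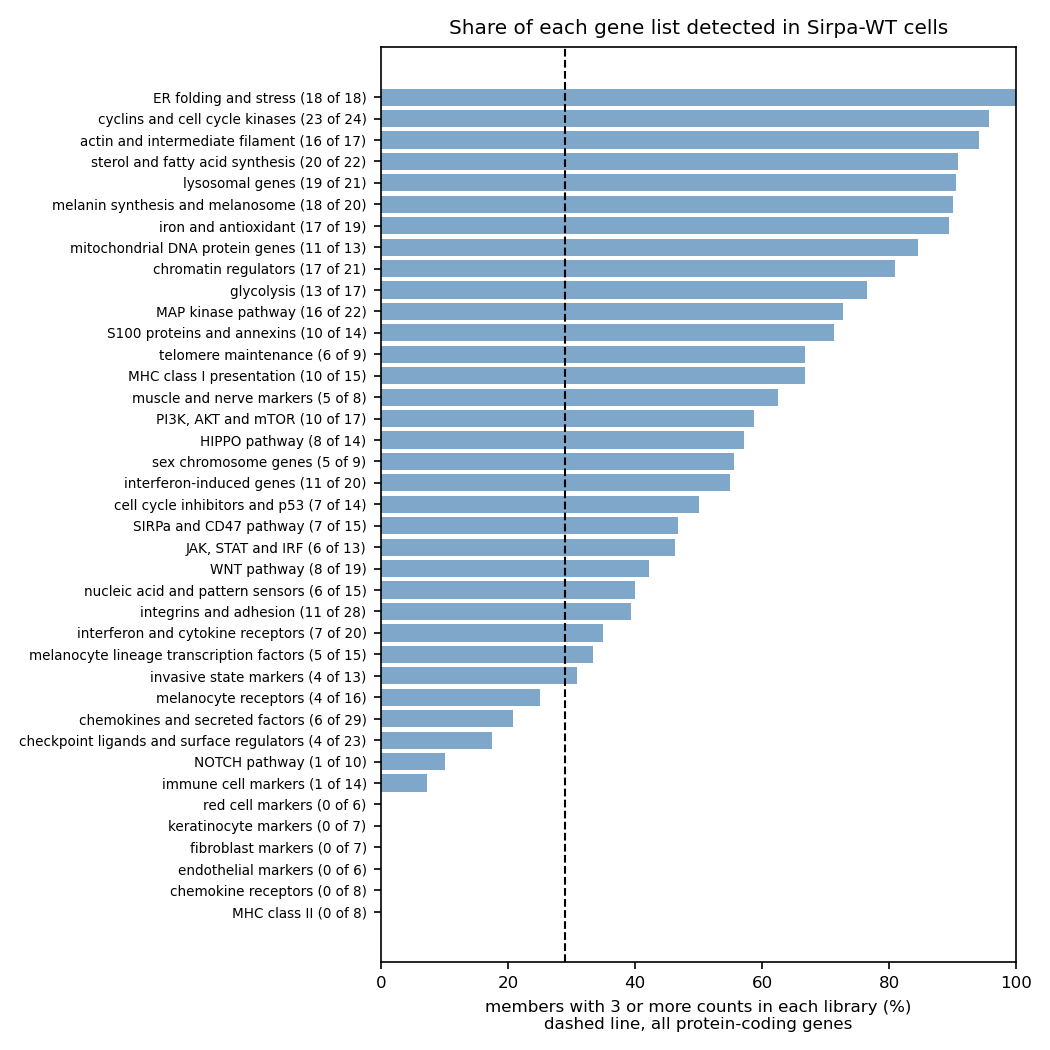
Share of each gene list with 3 or more counts in every Sirpa-WT library (bars from 0, percent), with the number of genes detected and listed beside each name. The dashed line is the 28.9% of all protein-coding genes. Lists of ER folding, cell cycle, cytoskeleton, sterol, lysosome and melanosome genes lie far to its right. Lists of MHC class II, chemokine receptors and keratinocyte, fibroblast, endothelial, red cell and immune cell markers lie at 0 or close to it. The muscle and nerve list, at 62.5%, lies to the right of the line.

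Housekeeping and organelle lists were detected nearly whole. All 18 ER folding and stress genes were detected, led per length by the chaperone genes Pdia6 (571, 461 and 508 counts, 451 ± 14 TPM), Calr (316 ± 62.2 TPM), Hspa5 (254 ± 15.9 TPM) and Hsp90b1 (235 ± 10.6 TPM). The stress factor genes Atf4 and Ddit3 stood at 90 ± 5.52 and 22.4 ± 5.86 TPM. Of 21 lysosomal genes 19 were detected, led per length by the protease gene Ctsd (629, 422 and 437 counts, 644 ± 95.4 TPM) and Cd63 (607 ± 62 TPM), whose ranges overlapped, ahead of the protease gene Ctsl (104 ± 11 TPM) and the proton pump subunit gene Atp6v1a (103 ± 9.47 TPM). Sterol and fatty acid synthesis had 20 of 22 detected, led per length by the desaturase gene Scd2 (99.8 ± 19.1 TPM).

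Iron and antioxidant genes were detected for 17 of 19. Besides both ferritin chains, Tfrc, the transferrin receptor that takes up iron, gave 697, 568 and 553 counts (1648 ± 46.4 CPM, 322 ± 19.3 TPM) and shares 0.0162% of its words with pseudogenes. Prdx1 gave 1736 ± 205 CPM with 16.6% shared words. Nqo1, a target of the antioxidant factor NRF2, gave 2, 2 and 2 counts, and Hmox1 13, 9 and 14.

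Glycolysis had 13 of 17 genes detected, led per length by Gapdh (1165 ± 115 TPM). Tpi1 (441 ± 27.8 TPM), Ldha (430 ± 29.2 TPM), Pkm (419 ± 16.3 TPM) and Pgk1 (403 ± 12 TPM) followed within each other's spread, then Eno1 (331 ± 3.01 TPM). These 6 have 13.6% to 55% of their words in pseudogenes. Pseudogenes held 92.4% ± 0.57 of the counts of the Gapdh family and 89.4% ± 0.798 of the Pgk1 family. They held 48.5% ± 4.28 for Ldha and 27.8% ± 1.03 for Eno1, which also shares words with Eno1b. The levels and order of these glycolysis genes are therefore uncertain. The glucose transporter gene Slc2a1 gave 6, 2 and 9 counts, and Hk1 (17, 14 and 5 counts) was detected where Hk2 (2, 4 and 3) was not. The mitochondrial genome as a whole took 4.02% ± 0.318 of counts. Of its 13 protein genes 11 were detected, and their levels were very uneven: per length mt-Co1 led, and mt-Cytb (7588 ± 744 TPM), mt-Nd1 (2109 ± 148 TPM) and mt-Nd4 (1162 ± 78 TPM) followed. Far lower were mt-Atp6 (99.7 ± 41.2 TPM), mt-Co2 (87.5 ± 26 TPM) and mt-Co3 (64.2 ± 11.2 TPM). The last 3 share 99.5% to 100% of their words with annotated pseudogenes, against 69.7% for mt-Co1 and 0% for mt-Nd1; the part of this in their levels was not tested.

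Cytoskeletal genes were detected for 16 of 17, with the myosin light chain gene Myl6 (653 ± 49.9 TPM) and the actin-severing gene Cfl1 (624 ± 19 TPM) the highest per length and within each other's spread. Pseudogenes held 86.4% ± 0.855 of the counts of the Myl6 family, so the level and place of Myl6 are uncertain. Actb stood at 259 ± 31.7 TPM and Vim at 189 ± 36 TPM. The exception was Tmsb4x, an actin-binding peptide gene on the X chromosome, which had no count. Of 14 S100 and annexin genes, 10 were detected, led per length by Anxa1 (269, 223 and 214 counts, 297 ± 17.8 TPM). Anxa2 gave 10, 20 and 20 counts, and the metastasis-associated gene S100a4 gave 1, 0 and 0. Of 9 telomere genes 6 were detected, with Atrx at 105, 63 and 63 counts and the telomerase gene Tert at 0, 1 and 1. Chromatin regulators were detected for 17 of 21, led per length by the SWI/SNF ATPase gene Smarca4 (116, 98 and 94 counts, 52.2 ± 2.77 TPM) and the polycomb gene Suz12 (90, 61 and 68 counts, 48.3 ± 5.91 TPM), which overlapped.

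The 3 libraries were close to each other, but not within counting error for abundant genes. Across the 7795 detected genes, Pearson's r of log2 CPM between pairs of libraries ran from 0.939 to 0.94, a description across genes, which are not independent replicates. The biological coefficient of variation, edgeR's estimate of spread beyond counting error, was 7.73% over 4207 genes with at least 10 counts in each library. It was 5.11% without replicate 1. The mean chi-square per degree of freedom was 1.18 over detected genes and 2.15 over the 1303 with a mean count of at least 50, of which 250 (19.2%) lay over 3. The libraries thus differed by more than sampling noise. They were summarised as replicates of the same condition.

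The 10 genes farthest from counting error, among those with a mean count of at least 50, were mt-Co1 (chi-square per degree of freedom 72.6), Dct (45.4), Sparc (38.9), Wnk1 (30.3), Ftl1 (29.5), Mki67 (27.8), mt-Cytb (22.9), Gm10359 (19.8), Msn (19.5) and Gm15564 (17.6). Large counts make small relative differences visible by this measure. Sparc, a secreted matrix protein gene, gave 1111, 732 and 605 counts, and Wnk1, a kinase gene of ion balance, 423, 248 and 185. Msn, which encodes moesin, gave 600, 363 and 350. In CPM replicate 1 was the highest library for Dct, Sparc, Wnk1, Mki67, Gm10359, Msn and Gm15564, and the lowest for mt-Co1, Ftl1 and mt-Cytb.

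Replicate 1 differed from the others along gene length. For 3849 protein-coding genes with at least 30 counts in all, the log2 ratio of replicate 1 to the mean of replicates 2 and 3 had a median of -0.11 in the shortest of 4 equal classes of gene length (255 to 2450 bases). It was -0.01 and 0.04 in the middle classes and 0.12 in the longest (6080 to 37510 bases). Ribosomal protein genes, of varied exon length in the files, had a median of -0.23 over 81 genes, below that of the shortest class, with 60 lowest in replicate 1 and 4 highest in it. Mki67 (10075 bases) and Wnk1, both in the longest class, were highest in replicate 1. What sets replicate 1 apart was not tested.

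**Figure D5:**
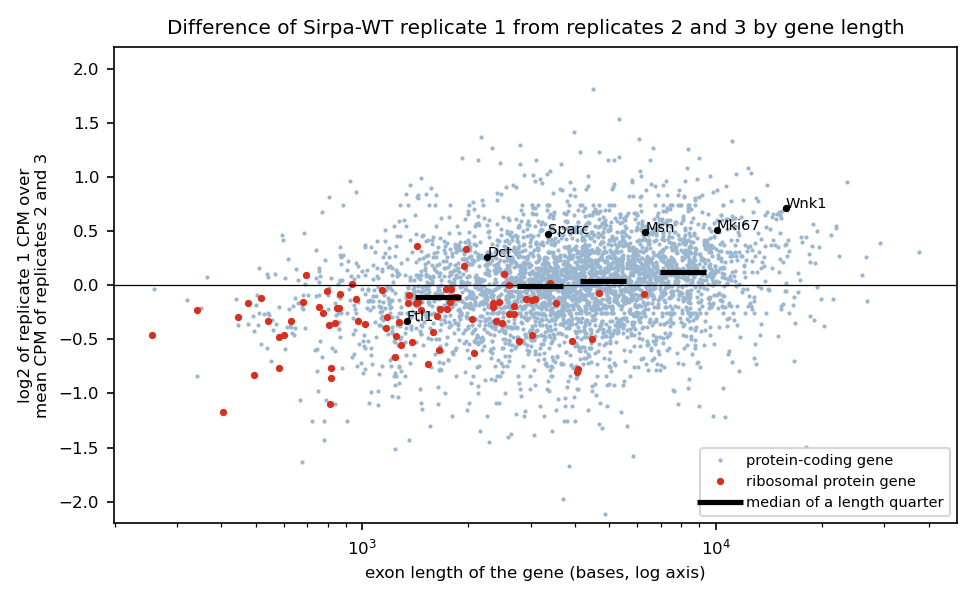
Log2 ratio of CPM in Sirpa-WT replicate 1 to the mean CPM of replicates 2 and 3 (vertical axis) against exon length (horizontal log axis, bases) for 3849 protein-coding genes (small points), with ribosomal protein genes in red. Thick bars are the medians of 4 length classes, -0.11, -0.01, 0.04 and 0.12; ribosomal protein genes lie mostly below 0, and Mki67, Wnk1, Sparc and Msn above it.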

How the data were processed

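The authors' deposited files hold raw fragment counts per gene, made per the file headers with featureCounts 1.5.1 (paired ends, exons summed by gene) on the Ensembl release 75 GTF for GRCm38. The header's reference folder bears the name of a human genome build although the GTF is the mouse one. Which sequence the reads were aligned to was not tested. The command carried no strand option and no option for reads that map to several places, so a fragment's strand did not decide between overlapping genes. STAR 2.6.0 and Subread are named in the submitters' processing notes, and the labels' protocols a stranded mRNA kit. Symbols and gene types came from GENCODE mouse release 21 (GRCm38), matched by identifier for 37693 of 39179 genes.

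Only the 3 Sirpa-WT libraries were described, without a test between groups: CPM by library total, TPM from the files' exon length, detection at 3 counts in each library, mean and SD over 3 libraries. Spread came from edgeR 4.0.16 (R 4.3.3, TMM scaling, intercept only, at least 10 counts in each library) and a chi-square per gene against the library totals. Both were tried on simulated data. The simulation gave all genes the same spread and no trend with gene length, so it does not cover the length trend described above. Shared sequence is the share of a gene's 25-base words, over its transcripts, that also occur in annotated pseudogenes. A pseudogene's parent was picked among the protein-coding genes that share most, or nearly as many, of its words. Among these, genes with a name other than a Gm number or Rik clone came first, then genes with several exons. The last criterion was the share of the candidate's own words found in the pseudogene. The parent had to share at least 10% of the pseudogene's words. Sequences were read from the GENCODE transcripts with Biopython 1.88.

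Alternatives were other detection minimums, TMM, DESeq2 1.42.0 size factors, the protein-coding total, leaving out mitochondrial genes and leaving out each library. Named genes were the pigment markers, Sirpa, Cd47, the most abundant genes by CPM and TPM, members of 40 gene lists and the 10 genes of largest spread. The lists, and the choice of these libraries, were made with earlier results of these data known. The word shares, their 5% and 10% limits, the parent rule (revised after its output was seen), the families, the printed stretches, the length comparison and the set against the deepest library were chosen after the data were seen. Single-cell libraries of the study were not analysed here. Some listed genes are counted in their lists but not reported here by name.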

Additional observations from a re-analysis of the deposited data

How the results depend on the processing

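The counts of detected genes depended on the minimum. With at least 10 counts in each library 4207 genes and 3223 protein-coding genes were detected, and with at least 1 count in any library 15463 and 11363. Leaving out 1 library gave 8162 to 8444 genes and 6429 to 6660 protein-coding genes. With mitochondrial genes left out of the total, protein-coding genes took 67.3%, pseudogenes 30.7% and the 100 highest genes 26.5% of counts. The coefficient of variation ran from 5.11% without replicate 1 to 9.96% without replicate 2, with 6.8% without replicate 3, and from 7.65% to 7.78% under the other minimums, scaling by library total and protein-coding genes alone. Of 25 gene levels, all stayed within 1 SD under TMM, DESeq2 size factors and each left-out library, and 24 moved when the total was taken over protein-coding genes, which raises every level; Sirpa, with an SD of 10.3 on 19.4 CPM, was the exception. No paired analysis was possible because only 1 group was described. Depth limits what can be said of genes under about 8.73 CPM in these libraries, and for these genes a missing call says little.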

Other observations

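Among 9 sex chromosome genes 5 were detected. Ddx3y, an RNA helicase gene on the Y chromosome, gave 15, 9 and 9 counts (29.6 ± 5.96 CPM) and shares 1.65% of its words with its X-linked relative Ddx3x, which gave 124, 124 and 108. The other Y genes were below detection: Uty gave 2, 1 and 1 counts, Eif2s3y 0, 1 and 0, and Kdm5d none. Xist, the RNA of the inactive X chromosome, had no count.

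Gm42418 on chromosome 17, annotated as a long intergenic RNA gene, gave 656, 391 and 556 counts (1447 ± 268 CPM), lowest in replicate 2. From which RNA these reads came was not tested. Its chi-square per degree of freedom was 17.4. It was singled out after its values were seen.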
